A study of Mus musculus with 12 samples.

Results

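Lysosomal enzymes, lysosomal membrane proteins and the 2 transcription factors Tfeb and Tfe3 were examined in mouse cortex as a set of 38 genes, chosen by symbol from the 41388 genes of the count table. All 38 passed the filter on low counts, within 17441 genes tested. Poly(A) RNA came from adult C57Bl/6 mice of 2 lines that alter exon 5 of Grin1, the gene of the NMDA receptor subunit GluN1. Knock-in mice (KI, genotype Grin1-exon5+/+) always include exon 5, and knockout mice (KO, genotype Grin1-exon5-/-) always lack it. Each line had its own wild types, named KI_WT and KO_WT, and each of the 4 groups had 3 libraries. Every library title carries a different animal number, so the spread between libraries is a spread between animals. The labels do not say how the alleles were made or give the sex of the mice, and a count per gene cannot check an exon.

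Lysosomes are acidic organelles in which hydrolases break down proteins, lipids, glycans and glycogen that arrive by endocytosis and autophagy. Most hydrolases reach them with a mannose 6-phosphate tag, and membrane proteins such as LAMP1 and LAMP2 line the limiting membrane. Loss of single enzymes causes storage diseases, many of which affect the brain because neurons are not replaced. The related factors TFEB and TFE3 enter the nucleus when the lysosome is stressed or nutrients are scarce, and bind short elements built on the E-box hexamer CACGTG in promoters of lysosomal genes.

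The promoters were searched for that hexamer because it is the letter core that TFEB and TFE3 recognise. Windows of 250 bases before to 50 bases after the annotated start were taken from RefSeq (GRCm38.p6), which held 34 of the 38 genes. Asah1, Ctsb, Ctsh and Npc1 had no entry. CACGTG reads the same on both strands, and it occurred in the windows of 12 of 34 genes (35.3%). Among all 27025 genes with a window the share was 8.09%, and among the 12103 tested genes with a window it was 11.1%. The longer TCACGTGA, which contains the hexamer, occurred in 3 of 34 genes (8.82%) against 1.12% of all genes. The still longer GTCACGTGAC, which contains both, occurred in 0 of 34 against 0.37%. The 12 genes are shown with 1 site each in 30 bases, 5′ to 3′ on the strand of the gene, with the hexamer in capitals.
Lamp1: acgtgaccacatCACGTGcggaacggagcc
Mcoln1: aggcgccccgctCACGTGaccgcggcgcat
Ctsl: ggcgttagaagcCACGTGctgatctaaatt
Lgmn: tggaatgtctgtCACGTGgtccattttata
Ctsf: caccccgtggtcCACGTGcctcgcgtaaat
Ctsa: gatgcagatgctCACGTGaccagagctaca
Gaa: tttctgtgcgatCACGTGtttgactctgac
Glb1: ctgcttctgagtCACGTGgcctacagaggc
Arsa: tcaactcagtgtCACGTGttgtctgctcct
Gla: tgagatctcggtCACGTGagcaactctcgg
Naglu: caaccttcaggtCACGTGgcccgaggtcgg
Sgsh: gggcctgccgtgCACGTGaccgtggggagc

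These stretches lie on the plus strand at chr8:13159134-13159163 (Lamp1), chr8:3500462-3500491 (Mcoln1), chr19:4855074-4855103 (Ctsf), chr2:164833766-164833795 (Ctsa), chr11:119267811-119267840 (Gaa), chr9:114401018-114401047 (Glb1) and chr11:101070009-101070038 (Naglu). On the minus strand they lie at chr13:64370739-64370768 (Ctsl), chr12:102439124-102439153 (Lgmn), chr15:89477423-89477452 (Arsa), chrX:134601182-134601211 (Gla) and chr11:119355522-119355551 (Sgsh). The 12 windows held 18 sites, of which 13 began within 100 bases before the start. Lamp1 held 4 sites, and Ctsa, Mcoln1 and Gla held 2 each. Of the genes with a window, 4 of 6 proteases, 3 of 8 sphingolipid genes, 2 of 6 glycosaminoglycan genes and 2 of 6 membrane protein genes had the site. Gaa was the sole gene of 4 with the site in the glycogen and glycoprotein group, and neither Lipa nor Npc2 nor the windows of Tfeb and Tfe3 held it. A match is a description of letters and not of binding.

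**Figure D1:**
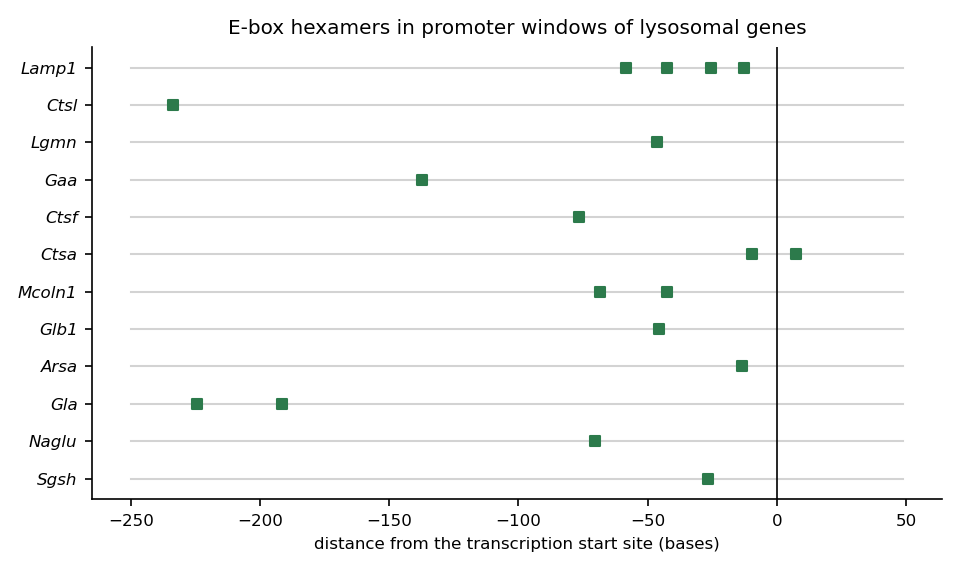
Each square is 1 CACGTG hexamer in the promoter window of 1 gene, placed by the distance of its centre from the annotated transcription start site in bases (x axis); grey lines span the window. Most of the 18 squares lie just before the start, and Lamp1 has 4 of them.

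The levels of these genes spanned a wide range, and RPKM (reads scaled by gene length and library total) is the scale on which they were compared with each other. Psap, the precursor of the saposins that present sphingolipids to their hydrolases, had the highest level, with a mean of 485 RPKM over the 12 libraries and a range of 448 to 579. It made up 33.4% of the summed RPKM of the 38 genes. Lamp1, a heavily glycosylated protein of the limiting membrane, followed at 139 RPKM, then Ids, the iduronate sulfatase of heparan and dermatan sulfate breakdown, at 131, and the cysteine protease gene Ctsb at 126. Lamp1 lay above Ctsb in 12 of 12 libraries. Ids lay below Lamp1 in 10 of 12 and above Ctsb in 10 of 12, so its place between them was not the same in every library.

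Of the set 4 genes lay above 100 RPKM, 21 above 10 RPKM and 8 below 3 RPKM. Between 100 and 20 RPKM lay the tetraspanin gene Cd63 (71.9), Ctsl (52.2), Lgmn (43.3), Scarb2 (42.7), Gaa (38.4), Smpd1 (34.6), Arsb (27.8), Hexa (25.1), Ctsf (23.2), Asah1 (21.9), Npc2 (21.7) and Ctsz (21.6). Between 20 and 5 RPKM lay Acp2 (18.0), Ctsa (16.0), Lamp2 (13.3), Mcoln1 (12.2), Neu1 (11.1), Lipa (7.87), Glb1 (7.64), Galc (7.44), Fuca1 (7.36), Man2b1 (6.81), Arsa (6.74) and Npc1 (6.26). The lowest means, in RPKM, were those of Gla (4.87), Ctsh (3.07), Tfe3 (2.91), Idua (2.86), Gusb (2.67), Ctsc (2.27), Naglu (2.14), Manba (1.71), Sgsh (1.15) and Tfeb (1.02). Thus both transcription factors were among the least abundant transcripts of the set, and the mean of Psap was 474 times that of Tfeb. By role the median RPKM was 30.4 for the membrane proteins, 22.4 for the proteases, 11.1 for the sphingolipid genes and 2.76 for the glycosaminoglycan genes. Genes with the hexamer had a median level of 14.1 RPKM and those without it in the window 12.2.

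**Figure D2:**
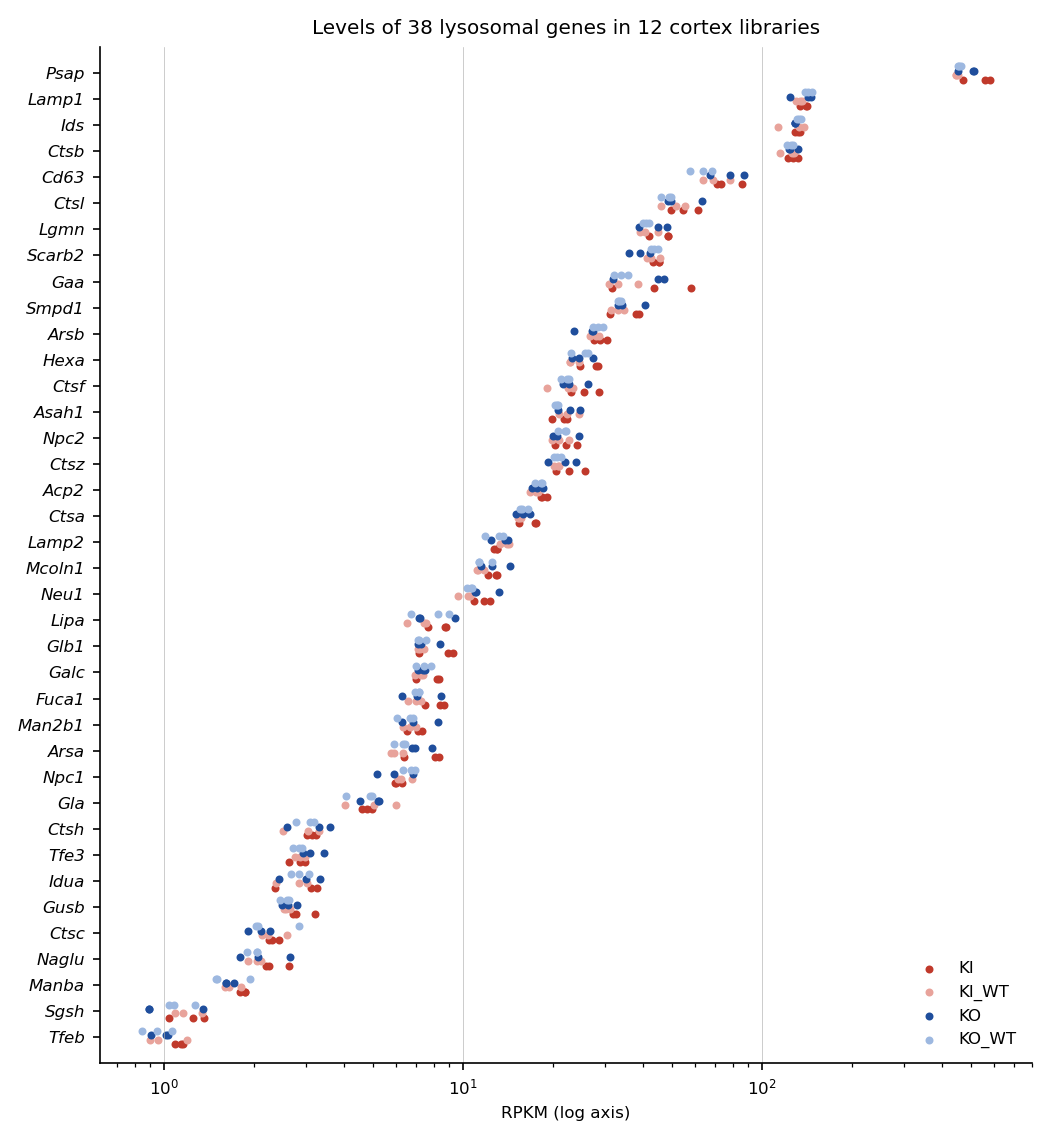
Deposited RPKM (log axis) of the 38 genes in each of the 12 libraries, ordered by mean, with 1 point per library coloured by group. The spread between genes, from 1.02 RPKM for Tfeb to 485 for Psap, is far wider than the spread between libraries, and the KI point of Gaa at 58.0 stands apart from the other Gaa points.

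The levels varied little between animals. The highest library was a median of 1.30 times the lowest, and for 36 of 38 genes the ratio was under 1.5. The exceptions were Gaa, with a ratio of 1.82, and Sgsh, with 1.59. The biological coefficient of variation (the spread between animals beyond counting error) was 6.86% to 17.3% with a median of 8.996%, against a median of 12.8% over all tested genes. By mean RPKM the set ran from percentile 52.9 (Tfeb) to 99.9 (Psap) of the genes detected. Genes of like level were not compared, so the lower median is not shown to be a trait of the set.

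The libraries held 31790970 to 36514024 counts over genes, and the 38 genes took 0.4436% to 0.5084% of them, with 129 to 53538 counts per gene and library. Excitatory neurons of cortex were represented in every library, with Slc17a7 (the vesicular glutamate transporter gene) at 523 to 1081 CPM (counts scaled to the TMM-adjusted library total, the unit for values by library). Markers of neighbouring tissue varied between libraries. The choroid plexus transcript Ttr was at 2.36 to 8.84 CPM in KI_WT 3, KO_WT 1 and KO_WT 3 and at 513 to 1780 in the others. The summed level of 7 olfactory bulb markers was highest in KI_WT 3, KO_WT 3, KO 1 and KI 2. Sums of 4 Y-linked genes were near 0 in 5 libraries (2 KI, 1 KI_WT, 2 KO) and high in the other libraries, all KO_WT included. Y-linked levels were thus not balanced between either mutant and its own wild types. Of the 38 genes 4 lie on chromosome X, namely Gla, Ids, Lamp2 and Tfe3. Fewer cells of a type and less RNA per cell cannot be told apart in such tissue.

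In the knock-in line the lysosomal genes stayed within 2-fold of their wild-type level by their 95% intervals. With edgeR 0 of the 38 genes passed the adjusted threshold of 0.05 when KI was set against KI_WT (0% of all tested genes did), and DESeq2 and limma also called 0 of the 38. The smallest adjusted p was 0.705. Before adjustment 3 of 38 had a p under 0.05, against 6.96% of all tested genes. The means leaned upwards: 28 of 38 genes had a log2 fold change above 0, against 48.7% of all tested genes, with a median of 0.07 against -0.01. The 95% interval of the fold change lay within 1.5-fold in either direction for 37 of 38 genes and within 1.25-fold for 23.

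Genes of sphingolipid breakdown had the highest median of the larger role groups, 0.14 on the log2 scale, with 7 of 9 above 0 and 0 past the adjusted test. Psap measured 1514 CPM in KI 1, 1498 in KI 2 and 1293 in KI 3, and the wild types KI_WT 1 to KI_WT 3 had 1263, 1260 and 1234 CPM. All KI libraries thus lay above all KI_WT libraries, KI 3 by the smallest margin. The log2 fold change of Psap (ENSMUSG00000004207; GRCm38 chromosome 10, 60277627 to 60302597, plus strand) was 0.20 (95% interval 0.01 to 0.38; edgeR adjusted p = 0.705). Arsa encodes arylsulfatase A, which removes the sulfate of the myelin lipid sulfatide. Its level was 29.4, 28.9 and 23.5 CPM in KI and 21.7, 23.8 and 21.4 CPM in KI_WT. KI 3 lay within the wild-type range. The log2 fold change of Arsa was 0.29 (95% interval 0.07 to 0.51; edgeR adjusted p = 0.705), the smallest p of the set in this comparison. An antisense gene model overlaps 18.8% of its exonic length. Of the 38 genes 14 share exonic bases with another gene model, 8 of them over 10% of their length with a model on the opposite strand (Arsb, Ctsl, Sgsh, Arsa, Ctsb, Hexa, Acp2 and Ctsa). The strand setting of the counting is not known here, so reads of such pairs cannot be told apart.

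Hexa, the alpha subunit of the hexosaminidase that degrades ganglioside GM2, was at 52.4, 49.1 and 46.2 CPM in KI and 43.8, 43.6 and 45.1 CPM in KI_WT, without overlap. Its log2 fold change was 0.16 (95% interval -0.00 to 0.32; edgeR adjusted p = 0.719), and 0.06 with terms for markers of the olfactory bulb, thalamus and choroid plexus. Asah1, the acid ceramidase, went the other way, with 67.0, 71.6 and 73.9 CPM in KI against 73.3, 77.9 and 82.3 CPM in KI_WT. Its groups overlapped at KI 3 and KI_WT 1, and its log2 fold change was -0.14, or -0.09 without KI 1 or KI_WT 3. The sialidase gene Neu1 (log2 fold change 0.14) did not overlap between groups. Glb1, the beta-galactosidase of ganglioside breakdown, was at 0.17, Galc, which degrades the myelin lipid galactosylceramide, at 0.08, the acid sphingomyelinase gene Smpd1 at 0.07 and the alpha-galactosidase gene Gla at -0.12 on the log2 scale. Without KI_WT 3 Gla was at 0.01, on the other side of 0.

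Among the 8 proteases 6 lay above 0 in KI against KI_WT, with a median log2 fold change of 0.06. Ctsb had 596, 589 and 583 CPM in KI and 617, 558 and 602 CPM in KI_WT, a log2 fold change of -0.01 (95% interval -0.16 to 0.15). Ctsf, a cathepsin of the papain family, had the smallest p of the proteases, with 49.7, 53.1 and 45.5 CPM in KI and 38.8, 47.3 and 44.0 CPM in KI_WT. Its groups overlapped, and the log2 fold change was 0.19 (edgeR adjusted p = 0.723), or 0.12 without KI_WT 1. The others ranged from -0.05 for Ctsc, which activates serine proteases, to 0.10 for Lgmn, the asparaginyl endopeptidase that cuts cathepsins to their mature form.

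The glycogen and glycoprotein group had 4 of 4 genes above 0, with a median log2 fold change of 0.13. Gaa, the acid alpha-glucosidase of glycogen breakdown, was at 274, 198 and 151 CPM in KI and 152, 162 and 183 CPM in KI_WT. KI 1 alone was far above the wild types, and KI 3 was below them. The log2 fold change of Gaa was 0.33 (95% interval -0.08 to 0.74; edgeR adjusted p = 0.763), and it was 0.09 without KI 1 and 0.52 without KI 3. Fuca1, the alpha-fucosidase, had 28.1, 25.9 and 24.5 CPM in KI and 22.0, 24.4 and 22.5 CPM in KI_WT. The groups touched without overlapping, with a log2 fold change of 0.19 (edgeR adjusted p = 0.733).

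The other groups lay near 0 in KI against KI_WT. The 6 glycosaminoglycan genes had a median log2 fold change of 0.02, with Naglu at 0.17 and Gusb at 0.12 above without overlap and Sgsh lowest at -0.03. Without the 4 libraries highest in olfactory bulb markers Naglu was at 0.05 and Gusb at 0.03. The 6 membrane protein genes also had a median of 0.02. Lamp2 encodes the membrane protein needed for chaperone-mediated autophagy. It was at 120, 117 and 125 CPM in KI and 131, 138 and 135 CPM in KI_WT. All KI libraries were below all KI_WT libraries, and the log2 fold change was -0.16 (95% interval -0.30 to -0.01; edgeR adjusted p = 0.705). That value was -0.10 with limma on log2(RPKM + 0.1), where the median of all genes was 0.05. Mcoln1, the calcium channel of the lysosomal membrane, was at 0.11 without overlap, and Lamp1 at 0.00. In the cholesterol group the acid lipase gene Lipa was at 0.18 without overlap, but at -0.11 with terms for the 3 regional marker lists in the fit. Npc2, the soluble cholesterol carrier, was at 0.02 and Npc1, the membrane exporter, at -0.12 (-0.06 without KI_WT 1). Tfeb was at 0.10 (0.01 without KI_WT 3 and 0.24 without KI_WT 2) and Tfe3 at -0.07, both with overlapping groups.

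In all, the KI and KI_WT libraries did not overlap for 9 of 38 genes (23.7%), against 12.2% of all tested genes. The 8 higher ones were Psap, Hexa, Neu1, Fuca1, Gusb, Lipa, Mcoln1 and Naglu (6.32% of all tested genes were higher without overlap), and the lower one was Lamp2 (5.87% of all tested genes). Besides Fuca1, several of the higher ones nearly touched. The lowest KI and highest KI_WT libraries were at 39.55 and 39.52 CPM for Mcoln1 and 12.4 and 12.3 for Gusb. They were at 22.9 and 22.7 CPM for Lipa and 5.84 and 5.74 for Naglu. Such margins were not compared with those of all tested genes. With libraries left out or terms added, the share of all tested genes under 0.05 was not counted, here or in the comparisons below. So the following counts have no background beside them. The number of the 38 genes with an unadjusted p under 0.05 was 0 without KI 1 or KI 2 and 1 without KI_WT 3 or KO_WT 3. It was 5 without KO 2, 6 without KO 1 and 7 without KI 3. It was 0 without the 4 libraries high in olfactory bulb markers, 0 when markers of the olfactory bulb, of the thalamus and of the choroid plexus entered the fit, and 1 with a term for Y-linked expression. Those 4 libraries included 1 of each group. Summed thalamic markers did not overlap between KI and KI_WT, so that term and the genotype are poorly told apart. All these fits had fewer residual degrees of freedom, so their low counts cannot decide whether the genes differ. The median of the set, 0.07, was 0.03 without those 4 libraries (27 of 38 genes above 0), 0.04 without KI_WT 3 and 0.05 without KI 2. With the regional terms it was 0.07, with 27 of 38 above 0, as with a term for microglial markers.

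Marker lists also differed between KI and KI_WT. All 8 thalamic markers were higher in KI (median log2 fold change 1.05, 7 of 8 without overlap; summed level 221 to 367.8 CPM in KI and 138 to 147 in KI_WT). All 7 olfactory bulb markers were lower (median -1.72, 0 of 7 without overlap; 18.9 to 64.3 CPM in KI and 12.4 to 336 in KI_WT). Choroid plexus markers were higher in 8 of 9 (median 0.33), meningeal markers in 7 of 8 (median 0.18; 160 to 206 CPM in KI and 144 to 184 in KI_WT) and border macrophage markers in 6 of 6 (median 0.26; 16.7 to 21.2 CPM in KI and 14.6 to 18.2 in KI_WT). Of 7 markers of oligodendrocyte precursors 6 were higher (median 0.24), 3 of them with an unadjusted p under 0.05 (6.96% of all tested genes had one). Without overlap 2 precursor markers were higher and 1 was lower. Their summed levels were 350 to 372 CPM in KI and 263 to 339 in KI_WT. Of 13 microglial markers 10 lay above 0 (median 0.07), with summed levels of 464 to 485 CPM in KI and 451 to 511 in KI_WT. Above 0 lay 6 of 10 oligodendrocyte (median 0.13), 5 of 10 astrocyte (median -0.01) and 3 of 10 neuronal markers (median -0.11). So did 5 of 8 endothelial (median 0.05) and 4 of 8 mural cell markers (median 0.00). Among all tested genes 12.2% did not overlap. The 4 Y-linked genes had lower means (median -1.31), with KI 1 alone high in KI and KI_WT 1 alone near 0 in KI_WT. The part of the meningeal, border macrophage, oligodendrocyte, precursor, astrocyte, neuronal, endothelial and mural markers in the lysosomal values was not tested.

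**Figure D3:**
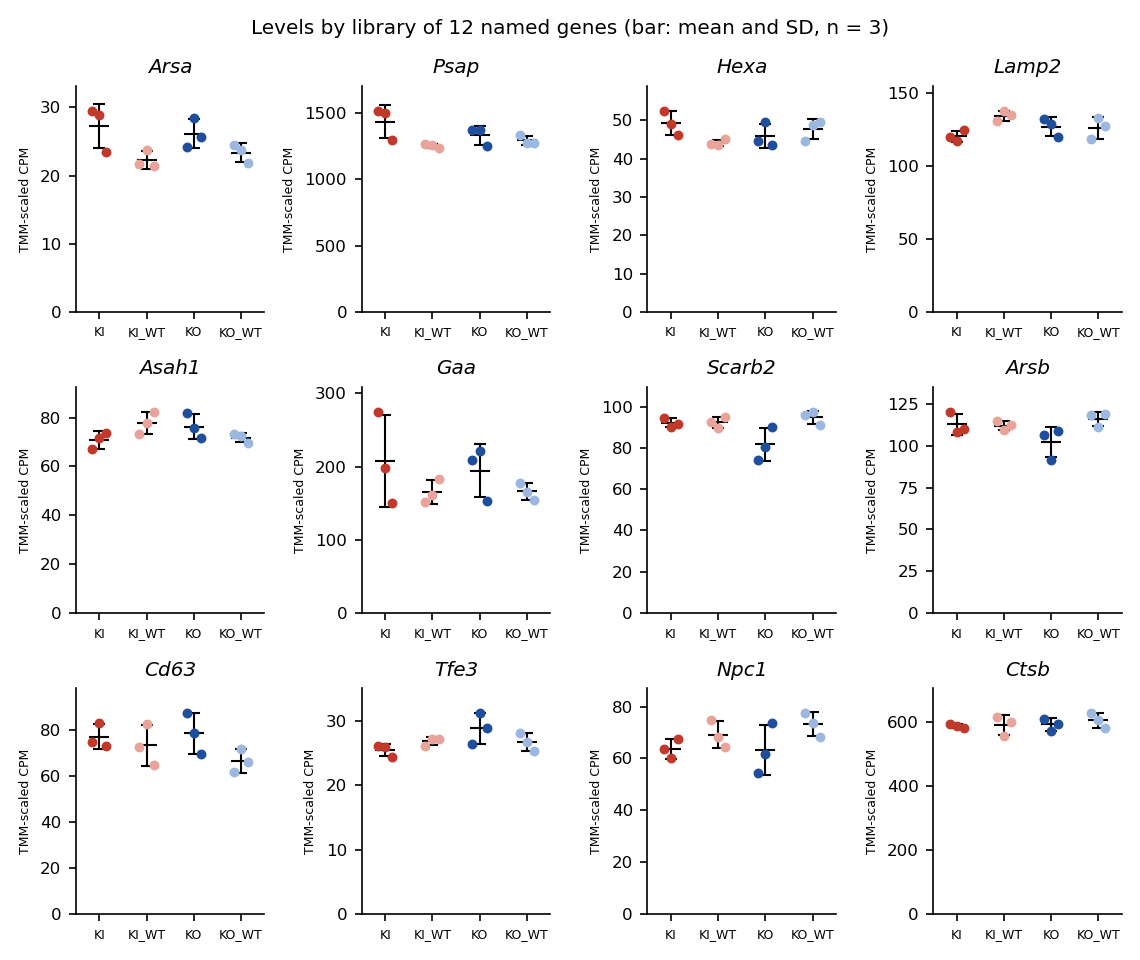
TMM-scaled CPM of 12 of the described genes in each library (points) by group, with the mean and SD of 3 libraries as bars; the y axes start at 0. Psap and Hexa lie higher in all KI than in all KI_WT libraries and Lamp2 lower, Scarb2 and Arsb lie lower in all KO than in all KO_WT libraries, and the Gaa points of KI spread from 151 to 274 CPM.

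In the knockout line the lysosomal genes split evenly into higher and lower means. In KO against KO_WT 0 of 38 genes passed the adjusted threshold with edgeR, where 0.00573% of all tested genes did, and DESeq2 and limma called 0 as well. The smallest adjusted p was 0.678. Before adjustment 3 genes had a p under 0.05, against 7.22% of all tested genes, with Cd63 on the higher side and Scarb2 and Arsb on the lower. Of the 38 genes 19 lay above 0 and 19 below (52% of all tested genes lay above), with a median log2 fold change of -0.00 against 0.01 for all tested genes. The interval lay within 1.5-fold for 37 of 38 genes, within 1.25-fold for 26 and within 2-fold for all. The libraries did not overlap for 3 of 38 genes (7.89%; 12.4% of all tested genes), namely Scarb2, Arsb and Ids, all lower (6.4% of all tested genes were). The number of the 38 genes with an unadjusted p under 0.05 was 1 without KO 1, KO 2, KO_WT 1 or KO_WT 3, and 5 without KO 3, again with no share of all tested genes counted. It was 0 without the 4 libraries high in olfactory bulb markers, and 0 with a term for Y-linked expression, each with 17 of 38 genes above 0. Both fits had fewer residual degrees of freedom, so these counts of 0 cannot decide whether the genes differ. The median was 0.05 without KO 3 and -0.02 without KO 1.

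Among membrane proteins Scarb2, the receptor that carries glucocerebrosidase to the lysosome, was at 74.2, 80.5 and 90.2 CPM in KO and 95.8, 97.3 and 91.2 CPM in KO_WT. All KO libraries were below all KO_WT libraries, KO 3 by the smallest margin. The log2 fold change of Scarb2 (ENSMUSG00000029426; GRCm38 chromosome 5, 92441314 to 92506833, minus strand) was -0.22 (95% interval -0.37 to -0.06; edgeR adjusted p = 0.678), or -0.34 with a term for microglial markers. The lowest adjusted p of any of the 38 genes under any alternative was also that of Scarb2 in this comparison, 0.140, without KO 3. Cd63, a tetraspanin of late endosomes, was at 87.5, 78.9 and 69.6 CPM in KO and 61.7, 72.0 and 66.2 CPM in KO_WT. KO 3 lay within the wild-type range, and the log2 fold change was 0.24 (95% interval 0.01 to 0.47; edgeR adjusted p = 0.678). It was 0.16 without KO 1 or without the 4 libraries high in olfactory bulb markers, 0.11 with the regional terms and 0.43 with the microglial term. Summed microglial markers did not overlap between KO and KO_WT, so in all values with the microglial term that term and the genotype are poorly told apart. Lamp1 had 322, 275 and 325 CPM in KO and 337, 322 and 335 in KO_WT, a log2 fold change of -0.11 with overlapping groups, or -0.03 without KO 2, the lowest library. Lamp2, Mcoln1 and Acp2, a lysosomal acid phosphatase made as a membrane protein, lay between -0.07 and 0.07.

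The glycosaminoglycan group had 5 of 6 genes below 0 in KO, with a median log2 fold change of -0.06. Arsb, the arylsulfatase of dermatan sulfate breakdown, was at 106, 91.8 and 109 CPM in KO and 118, 111 and 119 CPM in KO_WT. Its groups did not overlap, and its log2 fold change was -0.18 (95% interval -0.35 to -0.02; edgeR adjusted p = 0.678), or -0.11 without KO 2. One gene model on the opposite strand overlaps 32.3% of the exonic length of Arsb, and another overlaps 7.67%. Ids was at 644, 645 and 668 CPM in KO, while KO_WT had 711, 683 and 696 CPM, also without overlap, with a log2 fold change of -0.10 (95% interval -0.29 to 0.10), or -0.04 with the microglial term. Sgsh, the sulfamidase of heparan sulfate breakdown, had the widest interval of the 38 genes in every comparison, and in KO it was at -0.16 (-0.41 without KO 3 and -0.04 without KO 1).

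The 3 cholesterol genes all had lower means in KO, with a median of -0.07. Npc1 was at 54.2, 61.8 and 73.5 CPM in KO and 77.5, 73.7 and 68.4 CPM in KO_WT. The groups overlapped, KO 1 being lowest, and the log2 fold change was -0.21 (95% interval -0.44 to 0.02; edgeR adjusted p = 0.679). It was -0.11 without KO 1 and -0.33 without KO 3.

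The sphingolipid genes had 7 of 9 above 0 in KO and a median of 0.05. Psap was at 1372, 1368 and 1252 CPM in KO and 1332, 1275 and 1271 in KO_WT, a log2 fold change of 0.04 (95% interval -0.14 to 0.23). Arsa was at 24.2, 28.4 and 25.7 CPM in KO and 24.5, 23.7 and 21.9 in KO_WT (log2 fold change 0.16, or 0.10 without KO 2), and Asah1 at 81.8, 75.7 and 71.5 against 73.3, 72.3 and 69.8 CPM (0.09). Hexa was at -0.05. Gaa was at 209, 221 and 153 CPM in KO and 178, 165 and 155 in KO_WT, with a log2 fold change of 0.23 (95% interval -0.18 to 0.64). KO 3 was the lowest of these 6 libraries. Without it the value was 0.38, and without KO 2, the highest, it was 0.13. The proteases had a median of 0.02, from -0.19 for Ctsc to 0.10 for Ctsl, which was at -0.02 without KO 1. Ctsc had 11.9, 12.9 and 11.2 CPM in KO and 12.3, 16.7 and 12.1 CPM in KO_WT, where KO_WT 2 alone was high. Its value was -0.02 without that library. Tfe3 was at 26.5, 31.2 and 28.8 CPM in KO and 28.0, 26.7 and 25.3 CPM in KO_WT (log2 fold change 0.11, or 0.05 without KO 2), and Tfeb at -0.01.

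Several markers moved beside these values in the knockout line. Of 13 microglial markers 12 had lower means in KO (median -0.08, 4 without overlap), with summed levels of 439 to 463 CPM in KO and 502 to 534 in KO_WT. All 10 oligodendrocyte markers had lower means (median -0.39; 4997 to 10877 CPM in KO and 9110 to 11776 in KO_WT), as did all 7 of oligodendrocyte precursors (median -0.31, 4 without overlap; 284 to 352 CPM in KO and 352 to 390.0 in KO_WT). All 8 endothelial markers (median -0.20, 3 without overlap; 287 to 376 CPM in KO and 384 to 407 in KO_WT) and 7 of 8 mural cell markers (median -0.30, 4 without overlap; 189 to 252 CPM in KO and 233 to 287 in KO_WT) were also lower. The 4 Y-linked genes had lower means in KO (median -1.62), with KO 1 and KO 2 near 0 and KO 3 and all KO_WT libraries high. Choroid plexus markers were higher in 9 of 9 (median 0.88), thalamic markers in 8 of 8 (median 0.51) and meningeal markers in 7 of 8 (median 0.18). Lower means were found for 7 of 10 astrocyte markers (median -0.14, 3 lower and 1 higher without overlap) and 4 of 6 border macrophage markers (median -0.18). So they were for 6 of 10 neuronal (median -0.06) and 5 of 7 olfactory bulb markers (median -0.16). Among all tested genes 12.4% did not overlap. With a term for the microglial markers the median of the lysosomal set was 0.04, with 21 of 38 above 0. With terms for the 3 regional lists it was -0.02, with 14 above 0. With a term for Y-linked expression it was -0.01, with 17 above 0. The part of the oligodendrocyte lineage, endothelial, mural, meningeal, astrocyte, neuronal and border macrophage markers in these values was not tested.

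**Figure D4:**
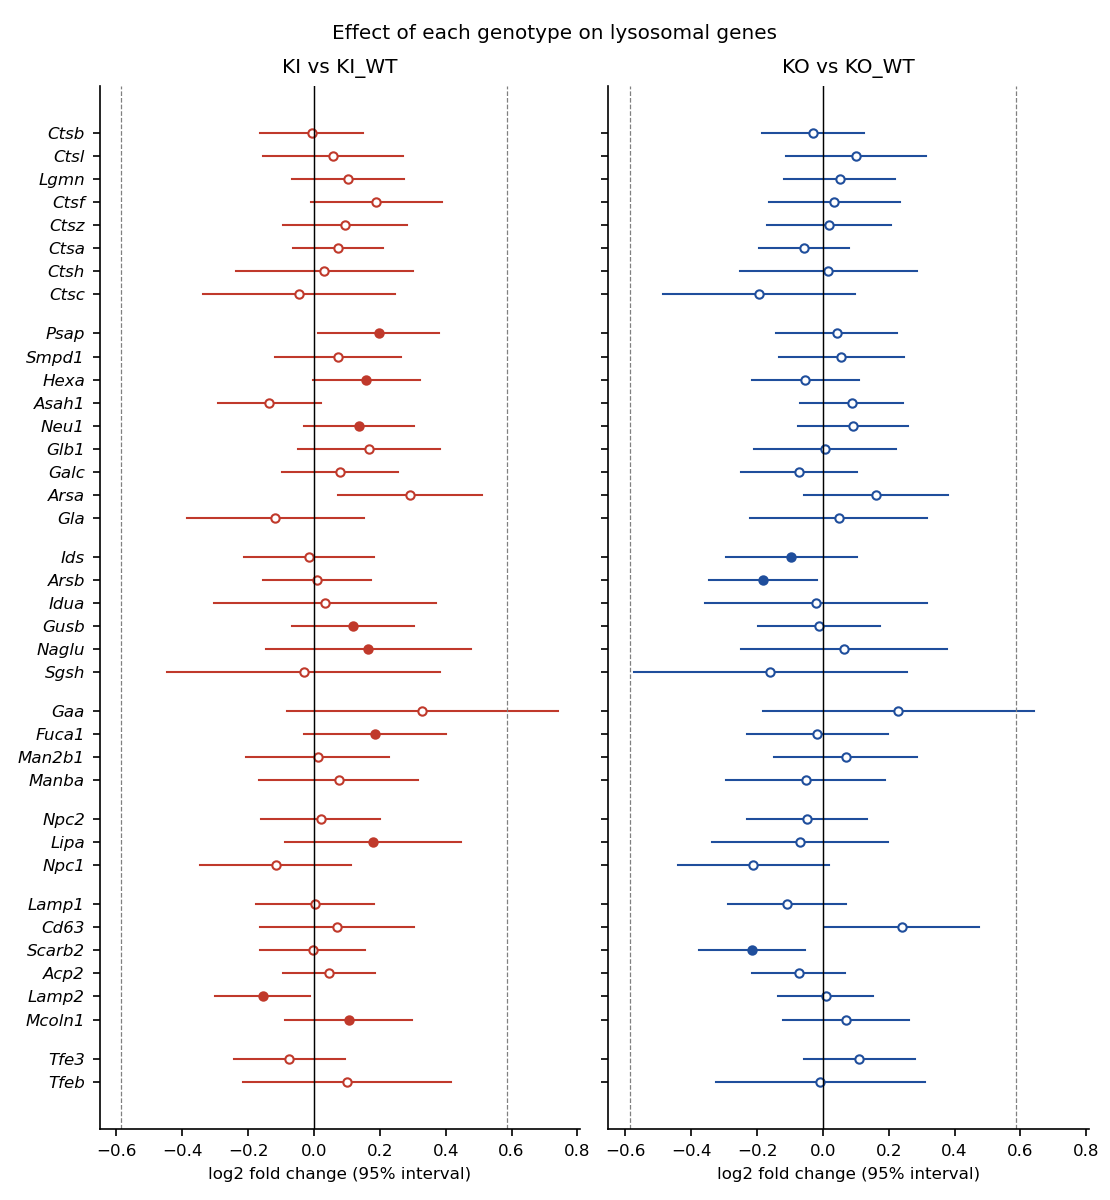
Log2 fold change with its 95% interval (x axis) for each of the 38 genes, grouped by role, in KI against KI_WT (left) and KO against KO_WT (right). Filled points mark genes whose libraries do not overlap between groups, 9 on the left and 3 on the right, and dashed lines mark 1.5-fold, which Gaa alone crosses on either side.

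The difference between the knock-in and knockout effects was tested directly. With edgeR 0 of 38 genes passed the adjusted threshold (0.00573% of all tested genes did), as with DESeq2 and limma, and the smallest adjusted p was 0.918. Only Asah1 had an unadjusted p under 0.05 (5.26% of all tested genes had one), with an effect lower by 0.22 on the log2 scale in the knock-in line (95% interval of the difference -0.45 to -0.00). The difference lay above 0 for 31 of 38 genes, against 49% of all tested genes, with a median of 0.10 against -0.01. It was 0.21 for Hexa, 0.21 for Scarb2, 0.19 for Arsb and 0.15 for Psap, and it was -0.16 for Lamp2 and -0.19 for Tfe3. Without KO 2 it was 0.12 for Arsb and -0.12 for Tfe3, without KI 3 it was 0.24 for Psap, and with the regional terms it was 0.10 for Scarb2. All 6 glycosaminoglycan genes and all 3 cholesterol genes lay above 0. The intervals of this difference were wider: 35 of 38 lay within 1.5-fold and 6 within 1.25-fold. The unadjusted count was 0 to 3 with single libraries left out, and 25 of 38 genes lay above 0 without the 4 libraries high in olfactory bulb markers. The median was 0.07 without those libraries and 0.06 without KI_WT 3.

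Between the mutants themselves, in KI against KO, 0 of 38 genes passed with edgeR, DESeq2 or limma (0.00573% of all tested genes did with edgeR). These comparisons share libraries with those above. An unadjusted p under 0.05 was found for Scarb2 (log2 fold change 0.17, 95% interval 0.02 to 0.33) and Tfe3 (-0.18, 95% interval -0.35 to -0.01), where 5.43% of all tested genes had one. Tfe3 was at 26.1, 25.9 and 24.3 CPM in KI, below the 26.5 to 31.2 CPM of KO. Tfeb and Manba, the beta-mannosidase, were higher in all KI than in all KO libraries, so that 3 of 38 genes did not overlap, against 10.2% of all tested genes. The median was 0.06, with 25 of 38 above 0 (50.7% of all tested genes). It was 0.03 without KI 1 and 0.10 without KI 3. The value of Tfe3 was -0.11 without KO 2.

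The wild types of the lines gave the background. In KI_WT against KO_WT edgeR, DESeq2 and limma called 0 of 38 genes (0% of all tested genes with edgeR), 0 had an unadjusted p under 0.05 (1.96% of all tested genes did), and 12 of 38 lay above 0 (50.1% of all tested genes) with a median of -0.03. Psap, Neu1 and Lamp1 were lower in all KI_WT than in all KO_WT libraries, 3 of 38 against 7.31% of all tested genes without overlap and 3.83% lower without overlap. Lamp1 was at 312, 315 and 290 CPM in KI_WT against 322 to 337 in KO_WT. Asah1 (log2 fold change 0.12) and Hexa (-0.11) had the smallest p-values, 0.132 and 0.160. All 38 intervals lay within 1.5-fold. Animal numbers were below 200 in KO 1, KO_WT 2 and KO_WT 3 and above it in the other libraries. With a term for this range 3 of 38 genes had an unadjusted p under 0.05 between the wild types. The adjusted threshold was passed by 0, and no share of all tested genes was counted. Among KO_WT only KO_WT 1 shared the range of the KI_WT libraries, so that term and the line are poorly told apart. The range was not balanced between KO and KO_WT either. In KO against KO_WT the term moved Sgsh from -0.16 to -0.27, Ctsl from 0.10 to 0.16 and Tfe3 from 0.11 to 0.06.

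The libraries of the knock-in line differed in their position over the set. In KI 1 30 of 38 genes lay above their mean over all libraries, in KI 2 26 and in KI 3 14. The share of all tested genes above their mean was not counted for any library. So these counts cannot tell a position of the set from one of the whole library. KI 1 was the highest of the 12 libraries for 10 genes (26.3%), against 8.15% of all tested genes. KI_WT 3 had the fewest genes above the mean, 10 of 38, and the lowest median deviation of the 12 libraries, -0.06, against 0.08 in KI 1 and 0.07 in KI 2. KI 1 also had the highest thalamic sum within the knock-in line, 367.8 CPM, and KI 3, with 266 CPM, was above KI 2, with 221 CPM.

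**Figure D5:**
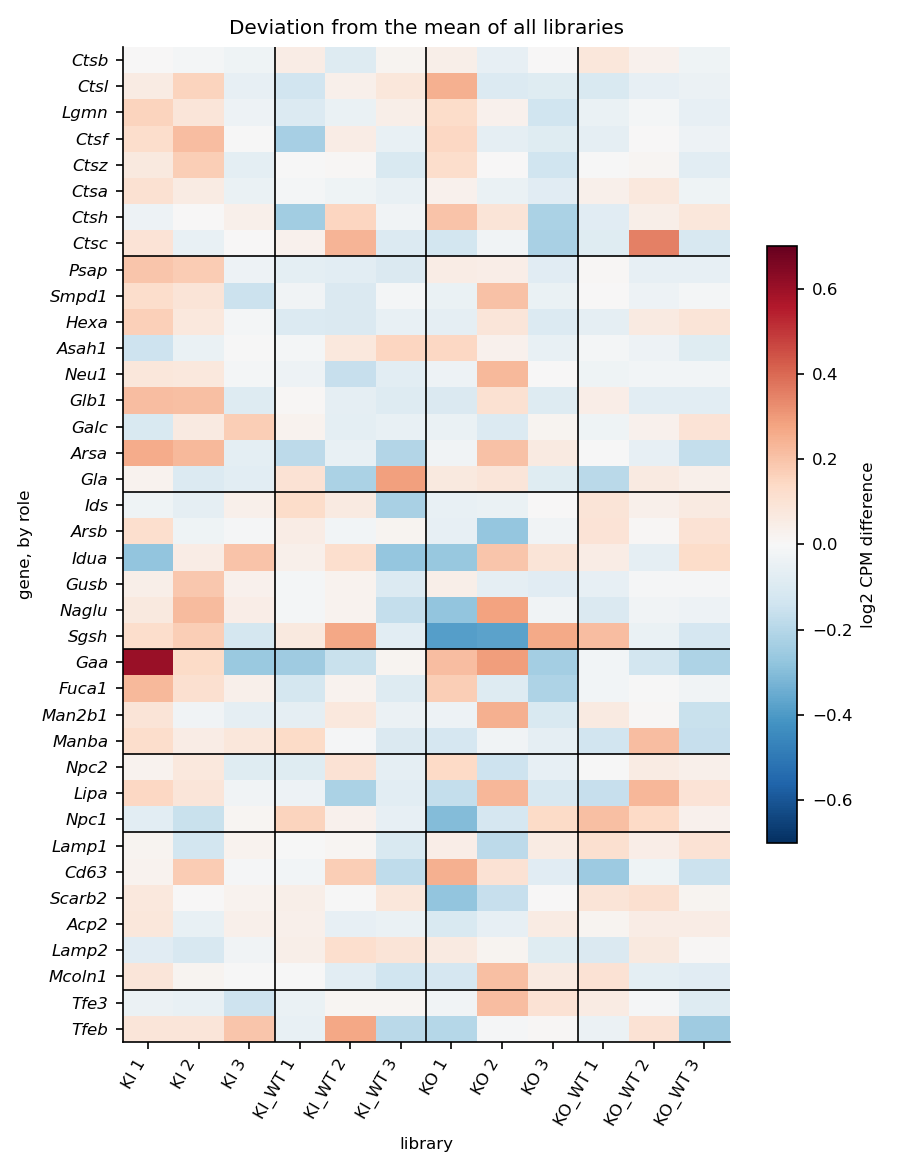
Log2 CPM of each of the 38 genes (rows, grouped by role) in each library (columns) minus its mean over the 12 libraries, red for higher and blue for lower. The columns of KI 1 and KI 2 are mostly red, with Gaa in KI 1 at 0.61 the strongest cell, while KI 3 is mixed.

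The genes were also divided by the promoter hexamer. In KI against KI_WT 10 of 12 genes with it lay above 0 (median 0.10), and 17 of 22 without it in the window (median 0.07). In KO against KO_WT the counts were 9 of 12 (median 0.05) and 8 of 22 (median -0.02). For the difference of the effects they were 10 of 12 (median 0.11) and 18 of 22 (median 0.11). KI against KO gave 9 of 12 (median 0.07) and 15 of 22 (median 0.07). KI_WT against KO_WT gave 5 of 12 (median -0.01) and 6 of 22 (median -0.04). No test was made of these groups, and genes outside the set were not divided by the hexamer.

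Other parts of the pathway were examined in 6 lists. For every list, the share of all tested genes past the adjusted test was 0% in KI and 0.00573% in KO. Of 33 further lysosomal enzymes and cofactors, 19 lay above 0 in KI (median 0.03) and 22 in KO (median 0.07). The adjusted test was passed by 0 of them in KI and by 1 in KO. That gene was Tpp1, the tripeptidyl peptidase of the lysosome, at 48.3, 46.1 and 48.6 CPM in KO and 83.4, 87.2 and 88.2 CPM in KO_WT. It fell by 0.86 on the log2 scale (SE 0.06; edgeR adjusted p = 0.000171). Tpp1 was also the only gene called among all 17441 tested in KO, so the share of 0.00573% is Tpp1 itself. The list was chosen with earlier results of these data known, so 1 of 33 beside that share says nothing about lysosomal enzymes as a group. The largest values among these enzymes in KI that did not pass were Prcp, a carboxypeptidase, at -0.31, and Acp5, the tartrate-resistant acid phosphatase, at 1.32 from levels of 0.0969 to 0.467 CPM. Of 23 other lysosomal membrane proteins 11 lay above 0 in KI (median -0.02) and 10 in KO (median -0.01), and 0 passed. The 2 with the smallest p in KO were the channel gene Tpcn1 (-0.20) and Mfsd8 (-0.21), a transporter gene linked to ceroid lipofuscinosis. In KI they were Tmem106b (-0.16) and Sidt2 (0.11).

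The V-ATPase, the proton pump that acidifies the lysosome, had 10 of 18 subunit genes above 0 in KI (median 0.01) and 14 of 18 in KO (median 0.13), with 0 past the test in either. Atp6v0b was at 171, 201 and 159 CPM in KO and 152, 142 and 149 in KO_WT, a log2 fold change of 0.26 (edgeR adjusted p = 0.678), and Atp6v0a2 went the other way at -0.31. Summed over the subunits, KO 1 had 5130 CPM, KO 2 5653 and KO 3 4835, against 4734 to 4760 CPM for KO_WT, so KO 2 was highest and KO 3 close to the wild types. In KI the smallest p-values were those of Atp6ap2 (0.17) and Atp6v1g1 (-0.09).

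Of 12 genes of mannose 6-phosphate tagging and sorting 5 lay above 0 in KI (median -0.01) and 7 in KO (median 0.02), and 0 passed. Gga1, an adaptor for mannose 6-phosphate receptors, was at 0.23 and the retromer gene Vps29 at -0.16 in KI. In KO the sorting receptor gene Sort1 was at -0.28 and Igf2r, a mannose 6-phosphate receptor, at -0.17. Of 21 nutrient sensing genes 11 lay above 0 in KI (median 0.01) and 10 in KO (median -0.00), and 0 passed. The folliculin partners Fnip1 (-0.27) and Fnip2 (-0.23) had the smallest p in KI, and Flcn, folliculin itself (0.19), and the Rag GTPase gene Rraga (0.17) in KO. Of 21 autophagy genes 10 lay above 0 in KI (median -0.00) and 9 in KO (median -0.03), and 0 passed. Sqstm1, the autophagy receptor p62, was at 0.17 and Becn1 at 0.10 in KI, and Ulk2 at -0.14 and Atg5 at 0.13 in KO. Of the genes with a promoter window, 5 of 9 sorting genes (55.6%), 6 of 19 nutrient sensing genes (31.6%) and 4 of 13 V-ATPase genes (30.8%) had the hexamer. So did 3 of 16 autophagy genes (18.8%), 3 of 19 genes of other membrane proteins (15.8%) and 3 of 21 genes of other enzymes (14.3%).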

How the data were processed

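The submitters' processing notes name bcl2fastq 2.17, STAR 2.5.0c, Cufflinks 2.2.1 and the build GRCm38. Which tool counted the reads, on which annotation and with which strand setting, is not given in the sources used here. The authors deposited whole-number raw counts for 41388 genes, and the authors' deposited RPKM values for the same genes. All columns matched a library title.

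Counts were fitted with edgeR 4.0.16 in R 4.3.3 (filterByExpr, TMM, quasi-likelihood, 1 mean per group, 12 libraries, 8 residual degrees of freedom), and p-values were adjusted by Benjamini-Hochberg over 17441 genes in each of 5 comparisons, with a threshold of 0.05. The fit was tested on simulated data. Groups do not overlap where all 3 libraries of one lie above all 3 of the other. Alternatives used DESeq2 1.42.0, limma 3.58.1 on log2(RPKM + 0.1) or log2(RPKM + 1) above 0.5 RPKM in at least 3 libraries, other scalings and filters, marker, Y-linked and animal-number terms, and single libraries left out. Coordinates are from GENCODE M21.

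Members and lists were chosen with earlier results of these data known. Values by library are given for the genes with the smallest p in each comparison (4 higher and 4 lower per genotype, 2 elsewhere), for the highest level and smallest p of each role, and from each pathway list for called genes or the 2 with the smallest p. Genes named in role groups beyond these were chosen after their values were seen.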

Additional observations from a re-analysis of the deposited data

Results flagged for a closer look

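Tpp1, the gene of the lysosomal tripeptidyl peptidase and not one of the 38, was called for a difference between the knock-in and knockout effects. The difference was 0.80 on the log2 scale (edgeR adjusted p = 0.0155), from -0.06 in KI against KI_WT and -0.86 in KO against KO_WT. The fall in KO passed the threshold in 24 of 24 alternatives (-0.91 to -0.76 on the log2 scale), and the difference in 13 of 23 (0.75 to 0.87). The adjusted p of the difference was 0.0578 to 0.0869 without KI 1, KI 3, KI_WT 1, KI_WT 2, KO_WT 2 or KO_WT 3, and 0.260 without the libraries high in olfactory bulb markers. It was 0.124, 0.398 and 0.0800 with terms for microglial, regional and Y-linked markers.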

How the results depend on the processing

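The count of lysosomal genes past the adjusted threshold was 0 in all 5 comparisons under every alternative that was run (24 per comparison of groups, 23 for the difference of effects). Of 4522 single-gene values under alternatives 352 had the other sign, and 0 of these passed the threshold. The member median in KI against KI_WT was 0.12 with limma on log2(RPKM + 0.1), where the median of all genes was 0.05, and 0.0327 without the 4 libraries high in olfactory bulb markers, an alternative chosen after seeing the data. In KO against KO_WT it was 0.0515 and 0.0393 with limma on log2(RPKM + 0.1) and log2(RPKM + 1), and 0.0376 with a term for microglial markers. With single libraries left out it was 0.0384 (without KI_WT 3) to 0.0819 in KI against KI_WT, and -0.0246 to 0.0476 (without KO 3) in KO against KO_WT. It was 0.0565 (without KI_WT 3) to 0.124 for the difference of effects, 0.0337 to 0.104 (without KI 3) in KI against KO, and -0.0359 to -0.0201 between the wild types. The causes were not tested. Among all tested genes edgeR called 0, 1, 1, 1 and 0 in the 5 comparisons and DESeq2 called 2, 8, 2, 12 and 1. Without KO 3 edgeR called 6 in KO against KO_WT. With 3 animals a group, the 95% interval stayed within 1.25-fold for 23 of 38 genes in the knock-in and 26 in the knockout comparison. No paired analysis was possible because the labels give no replicate numbers shared between groups.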
